A study of Mus musculus with 6 samples.

Results

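The desmosome genes described here are 10, chosen by symbol: the desmosomal cadherins Dsg2, Dsg3, Dsc2 and Dsc3, the plakophilins Pkp1, Pkp2 and Pkp3, desmoplakin (Dsp), plakoglobin (Jup) and Perp. All 10 were present among the 15431 genes used. They were measured by RNA-seq of total RNA, depleted of ribosomal RNA, from epithelial cells of 3 regions of the wild type mouse stomach kept in culture. The groups were antrum (antrum and pylorus together), corpus and forestomach, with 2 libraries each. Antrum and corpus are called the glandular cultures below. They were grown flat by one protocol, while forestomach cells were grown by a different, published one, so region and culture conditions cannot be told apart in any comparison with forestomach. All groups carry the mark p2, which the labels do not explain, and share the same pair of sample IDs. The labels give no strain, age or sex. They also do not say whether both libraries of a region had separate animal or culture sources, so every p-value here rests on a spread between libraries that could be technical.

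Desmosomes are junctions that tie the keratin filaments of neighbouring epithelial cells together. Desmogleins (Dsg) and desmocollins (Dsc) are cadherins that span the membrane and bind each other between cells. Inside the cell their tails hold the armadillo proteins plakoglobin and plakophilins, which bind desmoplakin, and desmoplakin holds the keratins. Several of these proteins come as paralogues: Dsg3, Dsc3 and Pkp1 are known from stratified squamous epithelia such as skin and oesophagus, whereas Dsg2, Dsc2 and Pkp2 are known from simple epithelia and heart. Perp, a membrane protein of desmosomes in stratified epithelia, is a known target gene of the squamous transcription factor p63.

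Levels are in CPM, counts per library size as scaled by the authors. From the even steps between low values the depth came to 36.9 to 47.7 M reads per library, at which 3 reads were worth 0.0630 to 0.0814 CPM. Fold changes are log2 differences of CPM + 1, which understate the change of genes at low levels. The squamous markers Krt5, Krt14 and Trp63 summed to at most 2.39 CPM in the glandular libraries and to 9806 to 11120 CPM in the forestomach ones. The columnar gastric markers Krt8, Cldn18, Gkn2 and Muc5ac summed to 2448 to 4132 CPM in the glandular libraries and to at most 0.73 CPM in the forestomach ones, so these markers set the glandular libraries apart from the forestomach ones. They do not check the labels of antrum and corpus against each other. Fibroblast markers were found with the glandular cultures. All 8 (Col1a1, Col1a2, Col3a1, Vim, Pdgfra, Pdgfrb, Dcn and Lum) were above 0 in every glandular library and summed to 36.8 to 79.4 CPM there, against 0.12 to 0.29 CPM in forestomach, where 4 were listed at 0 in both libraries. Their part in the results below was not tested. In bulk RNA, fewer cells of a type and less RNA per cell cannot be told apart.

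Of the 10 members, 2 matched a promoter sequence in the RefSeq table used, Dsp and Jup. Both windows are shown, and no other member had one to set beside them. These genes, unlike the cadherin and plakophilin paralogues, were above 100 CPM in every library of both kinds of epithelium. Whether the windows bear on these levels was not tested. Each window holds the 250 bases before the gene's start, 5′ to 3′ on the gene's strand, in build GRCm38.p6, and capitals mark GGGCGG, the GC box bound by Sp1-type factors, or its reverse complement CCGCCC. The Dsp window is chr13:38151044-38151293 on the plus strand and the Jup window is chr11:100397791-100398040 on the minus strand.
Dsp: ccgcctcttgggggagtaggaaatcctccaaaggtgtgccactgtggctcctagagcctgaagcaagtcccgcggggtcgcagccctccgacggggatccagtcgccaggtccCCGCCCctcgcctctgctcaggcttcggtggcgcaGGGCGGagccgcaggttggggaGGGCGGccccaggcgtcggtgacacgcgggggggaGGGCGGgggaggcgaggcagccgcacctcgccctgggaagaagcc
Jup: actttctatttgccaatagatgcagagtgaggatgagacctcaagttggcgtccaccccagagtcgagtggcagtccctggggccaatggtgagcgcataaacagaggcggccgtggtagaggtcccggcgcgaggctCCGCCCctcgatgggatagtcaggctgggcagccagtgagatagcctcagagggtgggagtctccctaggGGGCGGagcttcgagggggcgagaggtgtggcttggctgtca
The Dsp window had 4 such matches and a GC content of 72.4%, and the Jup window had 2 matches and a GC content of 62.0%. Over both strands, 32.7% of the 32851 windows of this length in the table hold at least 1 match. The letters CAGGTG (an E-box), TGANTCA (the AP-1 motif) and AACNNGTT (the core bound by grainyhead-like factors) were not in either window, on either strand, and occur in 17.2%, 6.75% and 3.64% of all windows.

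The comparison of the glandular cultures with forestomach asked how columnar and squamous epithelium differ in culture, here in their desmosome genes. Each member differed between them, and the paralogues moved in opposite directions. Dsg2, Dsc2 and Pkp2, those of simple epithelia, were higher in the glandular cultures, by 2.06-fold (Dsc2) to 6.25-fold (Dsg2) in mean CPM. Dsg3, Dsc3 and Pkp1, those of squamous epithelia, were higher in forestomach by 482-fold (Pkp1) to 5815-fold (Dsc3). The Pkp1 ratio was 265 without forestomach 1 and the Dsc3 ratio 9449 without corpus 2. Pkp3, Dsp, Jup and Perp were higher in forestomach by 2.02-fold (Jup) to 14.8-fold (Perp). In the limma fit over 11891 genes all 10 members passed an adjusted p of 0.05, 3 higher and 7 lower in the glandular cultures, and none of them overlapped between the 4 glandular and the 2 forestomach libraries. This is a contrast in which 47.8% of all genes tested were called, 21.1% higher (2508 genes) and 26.7% lower (3175 genes), and in which 59.4% of all genes tested had no overlap. The median log2 fold change was -1.57 over the members and -0.13 over all genes. When all libraries were brought to one median ratio, this moved that median of all genes to 0.05 and the split to 3495 higher and 2838 lower, and all 10 members kept their direction and their call.

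**Figure D1:**
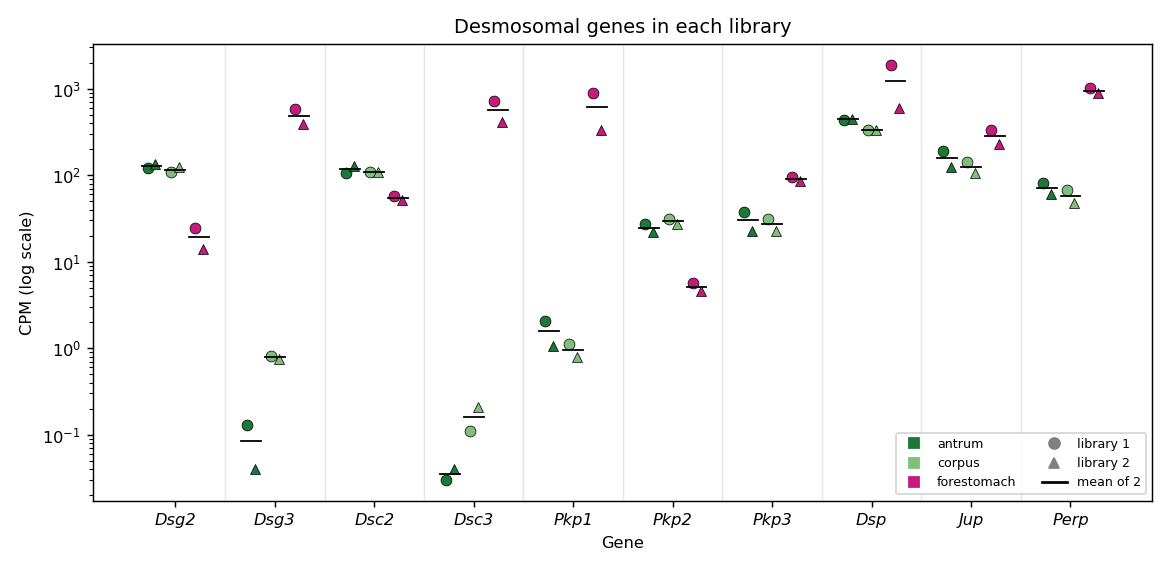
CPM of the 10 desmosomal genes on a log axis. Circles and triangles are libraries 1 and 2 of antrum, corpus and forestomach, and lines are means of 2. Dsg3, Dsc3 and Pkp1 sit at 2.09 CPM or less in the glandular libraries and at 336 CPM or more in forestomach, while Dsg2, Dsc2 and Pkp2 lie higher in the glandular ones.

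Dsg2 is the desmoglein of simple epithelia. It stood at 119.7 and 133 CPM in antrum 1 and 2 and 108 and 124 CPM in corpus 1 and 2, against 24.8 and 14.1 CPM in forestomach 1 and 2. The glandular libraries were all high and close together, and forestomach was low but not at 0. Dsg2 changed by 2.63 on the log2 scale (SE 0.27, adjusted p = 4.98e-05), with means of 121 ± 10.3 CPM in the glandular cultures (SD, n = 4) and 19.4 ± 7.58 CPM in forestomach (SD, n = 2).

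Dsg3, the desmoglein of squamous basal layers and the autoantigen of pemphigus vulgaris, showed the opposite order. It stood at 0.13 and 0.04 CPM in antrum and 0.81 and 0.76 CPM in corpus, against 581 and 385 CPM in forestomach. At the inferred depth the glandular values come to about 5, 2, 30 and 36 reads, against 21908 and 15551 reads in forestomach. The log2 fold change of -8.41 (SE 0.24, adjusted p = 3.21e-08) understates the gap, since the mean CPM was 1111-fold higher in forestomach. Dsg3 passed the filter of 1 CPM in 2 libraries through forestomach alone, as did Dsc3, so for both a lower level in the glandular cultures was the one outcome open to the test.

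Dsc2, the most widely expressed desmocollin, changed least of the cadherins. It stood at 107 and 128 CPM in antrum and 107.8 and 108 CPM in corpus, against 57.2 and 52.1 CPM in forestomach. The regions did not overlap, and the glandular mean of 113 ± 10.3 CPM (SD, n = 4) was 2.06 times the forestomach mean of 54.7 ± 3.61 CPM (SD, n = 2), which on the log2 scale is a change of 1.03 (SE 0.23, adjusted p = 0.00495).

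Dsc3, the desmocollin of basal squamous cells, had the largest fall of the members. It stood at 0.03 and 0.04 CPM in antrum and 0.11 and 0.21 CPM in corpus, against 723 and 411 CPM in forestomach. Its log2 fold change was -8.96 (SE 0.27, adjusted p = 3.47e-08). The antrum values come to about 1 and 2 reads and the corpus values to about 4 and 10. Pooled over the 4 glandular libraries, about 17 reads gave 0.0999 CPM, with an exact Poisson 95% interval of 0.0582 to 0.160 CPM that covers counting error only, against 562 CPM in the pooled forestomach libraries.

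Because longer transcripts give more reads, levels of paralogues were compared per kb of exon, with GENCODE M21 gene lengths. Annotated genes overlap Dsg2 (Gm16090, antisense), Dsp (Gm10129, on the opposite strand) and Pkp1 (Gm36938, on the same strand). They were not analysed here, and whether reads were counted by strand is not given. On that scale Dsg2 made up 99.1% to 99.96% of summed Dsg2 and Dsg3 in the glandular libraries, against 3.47% and 2.99% in the forestomach ones. Dsc2 made up 99.8% to 99.97% of summed Dsc2 and Dsc3 in the glandular libraries, against 7.50% and 11.5% in the forestomach ones. Each epithelium thus had one leading paralogue of each cadherin class, and the simple one was the minor form in forestomach rather than absent. The summed level of the 4 cadherins also differed. It was 34.8, 40.4, 33.7 and 35.6 CPM per kb in antrum 1, antrum 2, corpus 1 and corpus 2, against 231 and 143 CPM per kb in forestomach 1 and 2. The forestomach mean was thus 5.18-fold higher, and 4.38-fold with the length of the longest coding transcript in place of all exons.

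The plakophilins link the cadherin tails to desmoplakin. Pkp1, the plakophilin of stratified epithelia, whose loss in people causes skin fragility, stood at 2.09 and 1.07 CPM in antrum and 1.11 and 0.8 CPM in corpus, against 885 and 336 CPM in forestomach. The forestomach libraries were 2.64-fold apart, and both were far above the highest glandular library. The log2 fold change was -7.94 (SE 0.37, adjusted p = 3.19e-07). Pkp2, the plakophilin of simple epithelia and heart, went the other way. It stood at 26.9 and 21.9 CPM in antrum and 31.4 and 27.2 CPM in corpus, against 5.68 and 4.63 CPM in forestomach, which is a log2 change of 2.17 (SE 0.23, adjusted p = 5.38e-05). All glandular libraries were above both forestomach ones. Pkp3, which is found in nearly all desmosome-bearing epithelia, did not side with Pkp2. It stood at 37.6 and 22.5 CPM in antrum and 31.4 and 22.5 CPM in corpus, against 94.9 and 85.9 CPM in forestomach. Its log2 fold change was -1.66 (SE 0.28, adjusted p = 0.000969).

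Per kb of exon, Pkp1 was 1.39% to 2.63% of summed plakophilins in the glandular libraries, against 86.6% and 73.1% in forestomach 1 and 2. Pkp3 made up 54.3% to 65.7% and Pkp2 31.7% to 44.3% in the glandular libraries, against 12.9% and 26.0% for Pkp3 and 0.521% and 0.945% for Pkp2 in forestomach. The order of Pkp2 and Pkp3 in the glandular cultures rests on the lengths used. With the longest coding transcript, their mean shares there were 48.3% and 50.3%, and Pkp2 led in corpus 1 and corpus 2. The summed plakophilins were 15.8, 10.5, 14.8 and 11.4 CPM per kb of exon in antrum 1, antrum 2, corpus 1 and corpus 2, against 204 and 91.4 CPM per kb in forestomach.

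**Figure D2:**
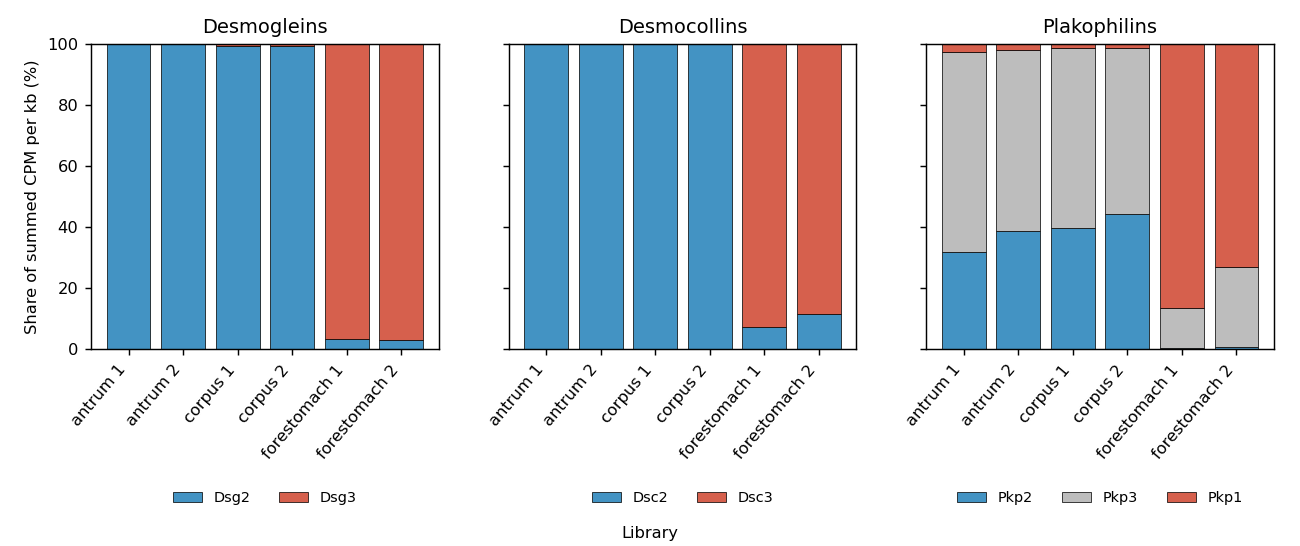
Share of each paralogue in its class, in percent of the summed CPM per kb of exon, by library. Blue marks Dsg2, Dsc2 and Pkp2, red marks Dsg3, Dsc3 and Pkp1, and grey marks Pkp3. Red fills at most 2.63% of each glandular bar and 73.1% or more of each forestomach bar.

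The switch between paralogues can be given per library without a length, since a length cancels between regions. The log2 ratio of Dsg2 to Dsg3 was 6.74 and 7.01 in antrum and 5.92 and 6.15 in corpus, against -4.50 and -4.68 in forestomach, a difference of 11.04. For Dsc2 over Dsc3 the difference was 9.99, with means of 6.69 ± 0.20 in the glandular cultures (SD, n = 4) and -3.30 ± 0.48 in forestomach (SD, n = 2). For Pkp2 over Pkp1 it was 10.12, for Pkp3 over Pkp1 6.28 and for Pkp2 over Pkp3 3.84. In each of the 5 pairs the glandular libraries lay apart from the forestomach ones by more than the spread within either. A two-sided exact permutation test gave p = 0.0667 for each pair, the smallest that 15 arrangements of 4 against 2 libraries allow, so this design cannot reach 0.05.

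Dsp, desmoplakin, is the plakin that every desmosome needs to hold keratin. It stood at 435 and 449 CPM in antrum and 328 and 330.1 CPM in corpus, against 1886 and 591 CPM in forestomach. The glandular values were even and the forestomach ones 3.19-fold apart. The log2 fold change was -1.47 (SE 0.42, adjusted p = 0.018). Without forestomach 1 it was -0.63 (adjusted p = 0.0639), which no longer passed, and without forestomach 2 it was -2.30.

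Jup, plakoglobin, binds the tails of desmosomal and of classical cadherins. It stood at 189 and 125 CPM in antrum and 143 and 106 CPM in corpus, against 335 and 232 CPM in forestomach. The lowest forestomach library was above the highest glandular one by a narrow margin. The log2 fold change was -1.02 (SE 0.29, adjusted p = 0.0181), and the call was lost without forestomach 1 (-0.75, adjusted p = 0.0968), without corpus 2 (-0.91, adjusted p = 0.0725) and without antrum 2 (-0.87, adjusted p = 0.0746).

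Perp stood at 81.5 and 60.7 CPM in antrum and 67.1 and 47.9 CPM in corpus, against 1014 and 888 CPM in forestomach. The forestomach pair was even and far above all glandular libraries, with a mean of 64.3 ± 13.9 CPM in the glandular cultures (SD, n = 4) and 951 ± 89.2 CPM in forestomach (SD, n = 2). The log2 fold change was -3.89 (SE 0.26, adjusted p = 3.08e-06). Trp63, the gene of p63, stood at 0.03, 0.02, 0 and 0 CPM in antrum 1, antrum 2, corpus 1 and corpus 2, against 180.3 and 138 CPM in forestomach. Perp was measured at 47.9 CPM or more in the glandular libraries, where Trp63 was at or near 0. A link between these genes was not tested.

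Per kb of exon, Dsp stood at 34.0 to 46.4 and Perp at 24.6 to 41.7 CPM per kb in the glandular libraries, where one or the other led the members, against 195 and 61.2 for Dsp and 519 and 455 for Perp in forestomach 1 and 2, where Perp led. With the longest coding transcript in place of all exons, Jup led in antrum 1 and corpus 1, at 59.0 and 44.5 CPM per kb.

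**Figure D3:**
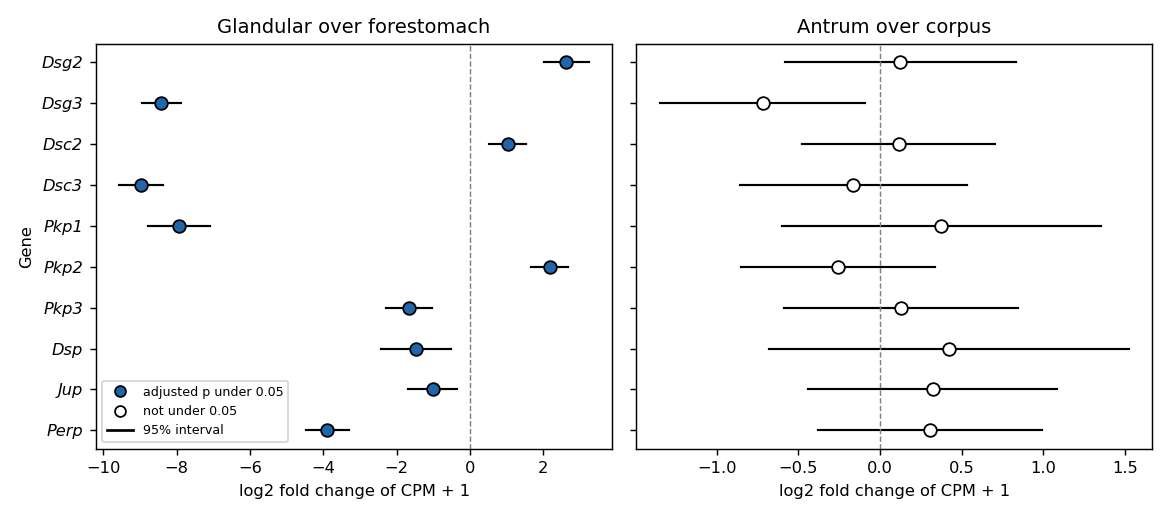
log2 fold change of CPM + 1 with 95% intervals from limma for the 10 genes, glandular over forestomach on the left and antrum over corpus on the right, each on its own scale. Filled points passed an adjusted p of 0.05, which all 10 did on the left, from -8.96 for Dsc3 to 2.63 for Dsg2, and none did on the right.

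The forestomach libraries differed from each other more for some members than for others. Forestomach 1 was above forestomach 2 for each member, by 1.10-fold for Dsc2 and Pkp3, 1.14-fold for Perp, 1.23-fold for Pkp2, 1.45-fold for Jup and 1.51-fold for Dsg3. The ratio was 1.76 for both Dsg2 and Dsc3, 2.64 for Pkp1 and 3.19 for Dsp. Over the 4800 genes at 10 CPM or more in all 6 libraries the median ratio of forestomach 1 to forestomach 2 was 1.33, and 15.8% of genes were more than 2-fold apart, as were 2 of the 9 members at that level in both libraries. In antrum and corpus 1.0% and 0.52% of genes were that far apart, and none of the 7 members at that level was.

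Low levels of one epithelium's paralogues in the other culture did not all keep pace with the markers. In forestomach, mean Dsg2 was 16.0%, Dsc2 48.5% and Pkp2 19.2% of the glandular mean. The columnar markers Krt8 and Cldn18 were at 0.0433% and 0.0023% of theirs, Krt18 at 0.634% and Krt19 at 2.97%. In antrum, mean Dsg3 was 0.0176%, Pkp1 0.259% and Dsc3 0.0062% of the forestomach mean, and in corpus Dsg3 was 0.163%, Pkp1 0.156% and Dsc3 0.0282%. Krt14 was at 0.0165% in antrum and 0.0213% in corpus, and Krt5 at 0.0191% in antrum and 0.0133% in corpus.

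The glandular regions shared a culture protocol, and antrum against corpus asked how they differ from each other. None of the 10 members passed in limma at an adjusted p of 0.05, in a contrast where 0.757% of all genes tested were called (0.555% higher and 0.202% lower), and 1 member, Dsg3, had an unadjusted p under 0.05. The log2 fold changes lay between -0.72 for Dsg3 and 0.42 for Dsp, with 95% intervals from -1.35 to 1.52, so for some members the interval reaches past 2-fold. The median over all genes was 0.21, and relative to it 4 members were higher and 6 lower in antrum. The intervals for Dsg2 were -0.58 to 0.83 and for Dsc2 -0.48 to 0.70, so these forms differed by less than 2-fold between the regions. Dsp did not overlap between antrum (442 ± 9.68 CPM, SD, n = 2) and corpus (329 ± 1.52 CPM, SD, n = 2), with a log2 change of 0.42 (SE 0.49, adjusted p = 0.845). The fit pools the spread between libraries over all regions, forestomach included. Dsp libraries were 1.031-fold apart in antrum and 1.007-fold in corpus, against 3.191-fold in forestomach. Its SE, adjusted p and upper interval limit of 1.52 thus do not measure the spread within antrum and corpus alone. Pkp2 did not overlap between antrum and corpus either, at 24.4 ± 3.54 CPM in antrum and 29.3 ± 2.97 CPM in corpus. In all 4 members did not overlap between the regions, where 50.7% of all genes tested did not.

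Dsg3 was the member whose traces differed most between the glandular regions. Antrum had about 5 and 2 reads and corpus about 30 and 36, and the pooled levels were 0.0817 CPM in antrum (exact Poisson 95% interval 0.0329 to 0.168) and 0.781 CPM in corpus (0.604 to 0.994), intervals that cover counting error only. On the CPM + 1 scale the log2 fold change was -0.72 (SE 0.28, unadjusted p = 0.0295, adjusted p = 0.515). With a pseudocount of 0.1 it was -2.30 (SE 0.37, adjusted p = 0.0289). Dsc3 did not overlap between the regions either, at about 1 and 2 reads in antrum and 4 and 10 reads in corpus. The squamous markers gave no such order, since Krt14 stood at 1.34 and 1.02 CPM in antrum and 1.3 and 1.74 CPM in corpus, Krt5 at 0.93 and 0.28 CPM in antrum and 0.19 and 0.65 CPM in corpus, and Trp63 had no read in corpus.

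Other desmosomal and desmosome-linked genes were counted from a list of 10, of which 8 were in the table and 6 were tested. Of these 1 was higher, 3 were lower and 2 did not pass in the glandular cultures, with a median log2 fold change of -1.20. Over all genes tested in this contrast, 21.1% were called higher and 26.7% lower. Of the 6, Dsg1b and Cdsn reached 1 CPM in forestomach alone, so only a lower level in the glandular cultures was open to their test. Dsg1b, one of the desmogleins of differentiated squamous layers, stood at 0, 0, 0 and 0.08 CPM in antrum 1, antrum 2, corpus 1 and corpus 2, against 8.73 and 10.2 CPM in forestomach (-3.35, SE 0.18, adjusted p = 6.12e-07). It has near-identical copies, such as Dsg1a, between which reads could be split. Cdsn (corneodesmosin, of cornified layers) was lower (-1.91, SE 0.35, adjusted p = 0.00177), and in forestomach it ran against the order of Dsp, at 1.91 and 7.18 CPM in forestomach 1 and 2. Ppl (periplakin, a relative of desmoplakin) was lower as well (-1.46, SE 0.43, adjusted p = 0.0193), though its groups overlapped. Like Dsp it was much higher in forestomach 1 than in forestomach 2, at 171 and 53.8 CPM. It stood at 55.8 and 38.5 CPM in antrum and 31.1 and 20.6 CPM in corpus, so antrum 1 was above forestomach 2. Evpl (envoplakin, -0.94, adjusted p = 0.0541) and Kazn (-0.06, adjusted p = 0.865) did not pass. Pkp4, an armadillo protein related to p120-catenin, was higher, at 101 and 93.3 CPM in antrum and 75.8 and 70.0 CPM in corpus, against 53.9 and 28.1 CPM in forestomach (1.09, SE 0.29, adjusted p = 0.0118). Dsc1, the desmocollin of upper squamous layers, stayed under 1 CPM in every library.

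Adherens junctions are the actin-linked neighbours of desmosomes. Their cadherin genes Cdh1 and Cdh3 moved in opposite directions. Of 13 tested genes 6 were higher, 3 were lower and 4 did not pass, with a median log2 fold change of 0.75. Over all genes tested in this contrast, 21.1% were called higher and 26.7% lower. Pvrl3 reached 1 CPM in glandular libraries alone, so only a higher level there was open to its test. Cdh1 (E-cadherin) stood at 883 and 807 CPM in antrum and 757 and 722 CPM in corpus, against 255 and 165 CPM in forestomach (1.94, SE 0.28, adjusted p = 0.000435). Cdh3 (P-cadherin, of basal squamous cells) stood at 2.09 and 1.22 CPM in antrum and 1.52 and 1.59 CPM in corpus, against 149.0 and 149.8 CPM in forestomach (-5.86, SE 0.23, adjusted p = 1.29e-07). Both groups of libraries were well apart for each cadherin. In CPM, Cdh1 stayed above Cdh3 in both forestomach libraries, though in forestomach 2 only at 165 against 149.8 CPM. Gene lengths were not applied to this pair, so which of them led in forestomach cannot be told. The nectin genes moved in both directions, with Pvrl3 (nectin-3; 3.27, SE 0.23, adjusted p = 3.51e-06) and Pvrl2 (nectin-2; 2.78, SE 0.29, adjusted p = 4.82e-05) higher and Pvrl1 (nectin-1; -3.57, SE 0.22, adjusted p = 1.75e-06) lower. The nectin-binding Mllt4 (afadin) and the catenin genes Ctnna1 and Ctnnd1 were higher, and Arvcf, a further p120-type catenin, was lower (-2.19, SE 0.24, adjusted p = 6.88e-05). Ctnnb1 (beta-catenin, 0.75, adjusted p = 0.0805), Lima1 (0.53, adjusted p = 0.164), Vcl (0.04, adjusted p = 0.91) and Pvrl4 (-0.33, adjusted p = 0.294) did not pass. Neither this list nor the desmosome-linked one had a call between antrum and corpus, where only 0.757% of all genes tested were called.

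**Figure D4:**
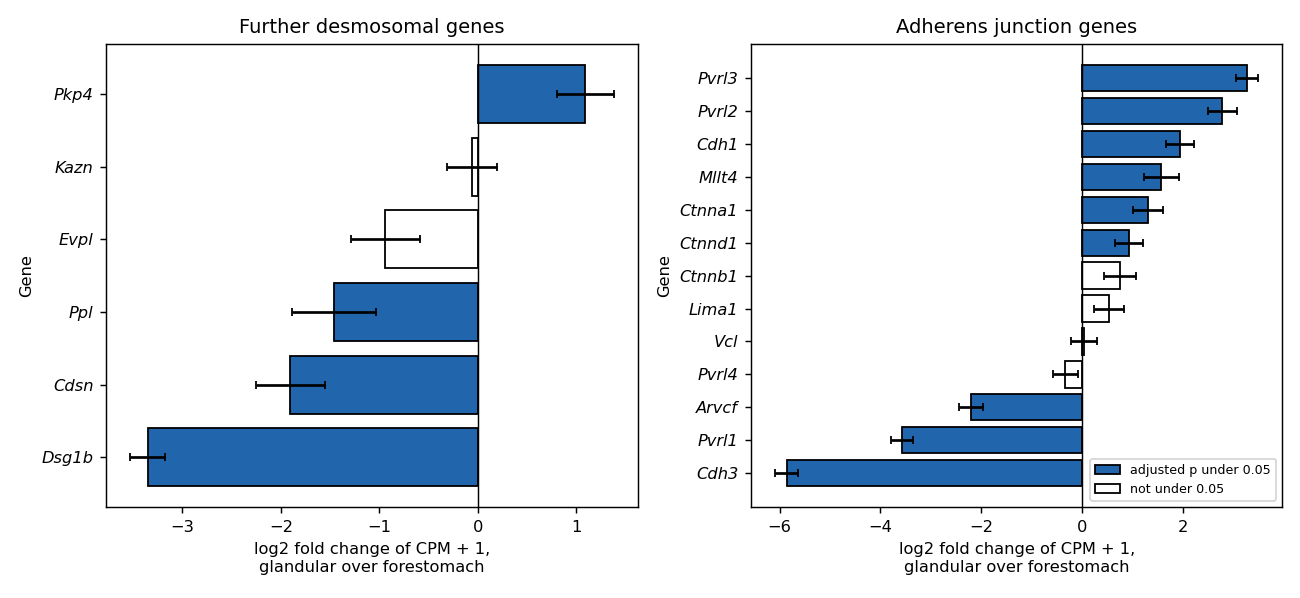
log2 fold change of CPM + 1, glandular over forestomach, with SE as error bars, for the tested genes of the further desmosomal list and of the adherens junction list. Filled bars passed an adjusted p of 0.05. Dsg1b and Cdh3 lie at the low end of their lists, at -3.35 and -5.86, and Pkp4 and Pvrl3 at the high end, at 1.09 and 3.27.

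Keratins, which desmoplakin holds, changed with the paralogues. All 5 tested partners passed, with Krt8 (9.62), Krt18 (7.13) and Krt19 (4.97) higher and Krt5 (-11.04) and Krt14 (-11.58) lower in the glandular cultures. Krt8 reached 1 CPM in glandular libraries alone and Krt5 in forestomach alone, so for these the direction was set by the filter. Of 9 tested transcription factors tied to desmosome or junction genes 2 were higher, 3 were lower and 4 did not pass, beside the 47.8% of all genes tested that were called. After rescaling 3 were higher and 2 lower, and without corpus 1, corpus 2 or antrum 2 the lower ones were 2. Trp63 and Snai2 reached 1 CPM in forestomach alone and Zeb1 in antrum alone, so the filter set their direction too. Trp63 (-7.29, SE 0.21, adjusted p = 3.41e-08), Snai2 (-4.69, SE 0.19, adjusted p = 1.33e-07) and Trp53 (-0.80, SE 0.24, adjusted p = 0.023) were lower. Grhl3, a grainyhead-like factor of barrier epithelia, was higher (1.51, SE 0.24, adjusted p = 0.000834), and Zeb1, a repressor of epithelial junction genes, was higher as well (1.07, SE 0.17, adjusted p = 0.000725). Zeb1 stood at 1.24 and 1.62 CPM in antrum and 0.81 and 0.99 CPM in corpus, against 0.03 and 0.02 CPM in forestomach. Zeb2, too low to be tested, stood at 0.62 and 0.21 CPM in antrum and 0.52 and 0.36 CPM in corpus, against 0 in forestomach. The fibroblast markers were likewise found with the glandular cultures, and which cells these reads came from was not tested. Grhl1 (-0.17, adjusted p = 0.579), Grhl2 (-0.51, adjusted p = 0.15), Klf4 (0.58, adjusted p = 0.138) and Klf5 (0.25, adjusted p = 0.536) did not pass.

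The genes whose profiles over the 6 libraries lay nearest to Dsg3, by root mean square distance of centred log2(CPM + 1), were Htra1 (0.26), Hspb1 (0.33) and Wnt4 (0.35). The member Dsc3 came next, at 0.36, and Pkp1 was seventh, at 0.57. Nearest to Dsg2 were Sh3gl2 (0.12), Appl2 (0.12) and Bicd1 (0.13), with Pkp2 at 0.35 and Dsc2 at 0.78. Htra1 stood at 1.03, 0.45, 0.98 and 0.9 CPM in antrum 1, antrum 2, corpus 1 and corpus 2, against 689 and 435 CPM in forestomach. With 6 libraries in 3 regions such likeness rests mainly on the step between forestomach and the rest.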

How the data were processed

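The authors deposited 1 table of CPM values, rounded to 2 decimals, for the 6 libraries. Per the submitters' processing notes, STAR, HTSeq, DESeq2 and edgeR and the build mm9 were used, with no version or role. For the annotation and strand setting, no label or header gives a value, and reads of overlapping genes may be mixed in. Columns name a region and a number that the labels do not tie to a sample, so each was assigned to its region (pylorus to antrum). Of 15450 rows, 19 whose symbols had become dates were left out. Listed values summed to 33.2% to 48.4% of the CPM scale's total.

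Genes at 1 CPM or more in 2 libraries (11891) were fitted as log2(CPM + 1) with limma 3.58.1 in R 4.3.3, with 3 group means, an intensity trend and no block, leaving 3 residual and 6.1 prior degrees of freedom. The contrasts were the mean of antrum and corpus minus forestomach, and antrum minus corpus. Tests were two-sided, adjusted by Benjamini-Hochberg over all genes tested, at 0.05. The fit was also run on simulated data, in which all libraries had the same spread. The real forestomach libraries were further apart than those of antrum and corpus, so that run does not check the p-values given here. Depth was the lowest total that made every value under 50 CPM a whole read within 0.0051 CPM. A slightly higher total, set beside it for each library, did so for 41.6% to 54.5% of values. Multiples of the depth would make the values whole too. Reads were rounded from the depth, and no count test was run.

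Members and lists were chosen with earlier results of these data known. All members are named, and list genes by size of change. Gene lengths came from GENCODE M21, which is not the authors' build, and promoter sequences from RefSeq. The alternatives were other pseudocounts, filters and scaling, no trend, a block, and leaving out each library.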

Additional observations from a re-analysis of the deposited data

How the results depend on the processing

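All 10 members kept their direction in glandular against forestomach under the 13 alternatives each, and 126 of 130 values kept their side of the threshold. The others are the Dsp and Jup values given above without 1 library (Dsp -0.63, and Jup -0.91, -0.87 and -0.75). The count of members called, an alternative added after seeing the data, was 8 to 10 without 1 library and 10 under the other alternatives. Without 1 library, Dsp ranged from -2.30 to -0.63 and Jup from -1.28 to -0.75. A lone library left in a region is assumed to vary like the others. The counts of list genes called and the ratios of mean CPM without 1 library were likewise added after seeing the data. Of the 13 adherens junction genes 9 were called, against 10 with the replicate block (7 higher, 3 lower), 11 after rescaling (8 higher, 3 lower) and 8 to 10 without 1 library. Of the 6 desmosome-linked genes 4 were called, against 5 with the block and after rescaling (4 lower each) and 3 to 5 without 1 library. All 45 paralogue values kept their direction. Over all genes, the split in glandular against forestomach was 3436 higher and 2625 lower without forestomach 1, and 2077 higher and 3776 lower without forestomach 2. In antrum against corpus, Dsg3 passed with a pseudocount of 0.1 (-2.30). Signs turned after rescaling for Dsg2 (-0.095), Dsc2 (-0.10) and Pkp3 (-0.085), none of which passed in any form. Without 1 library Pkp3 ranged from -0.23 to 0.49 and Dsc2 from -0.015 to 0.25. Of the 90 genes called there (66 higher, 24 lower), rescaling left 42 higher, no filter 54 (40 and 14), no trend 48 (38 and 10), and leaving out 1 library 19 to 33 (14 to 27 higher, 5 to 10 lower). The cause was not tested.

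The fit with the column number as a replicate block called 33 (25 higher, 8 lower), and it changed no member's call. Deviations of same-numbered libraries correlated at 0.61 between antrum and corpus, -0.06 between corpus and forestomach and -0.11 between antrum and forestomach. Same-numbered libraries of antrum and corpus thus varied together, and those of forestomach did not vary with them. The block took the same shift in all regions, forestomach included, so that fit was not a paired test of antrum against corpus. The labels do not tie the numbers to sample IDs, and the main fit did not take them as pairs in either contrast. Depth limits Dsg3 and Dsc3 in the glandular libraries, where 1 to 36 reads lie behind each value.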
